A study of Mus musculus with 12 samples.

Results

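Semaphorins and their receptors, the plexins and neuropilins, were examined in the visual thalamus of newborn mice lacking SOX2 or NR2F1 in thalamic neurons. The group comprised 31 genes, chosen by symbol from the 24480 genes of each count table, namely 20 semaphorins, 9 plexins and the neuropilins *Nrp1* and *Nrp2*. All 31 genes had enough counts to be tested in both lines, with 69 to 33315 reads per gene in a library. RNA-seq was performed on the dorsal lateral geniculate nucleus (dLGN), the thalamic relay of visual input, at postnatal day 0 (P0), in 12 libraries that each pooled the dLGNs of 3 animals of one genotype.

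The libraries formed 4 groups of 3. *Sox2* mutants (Sox2flox/flox;Ror-alphaCre) and *Nr2f1* mutants (Nr2f1 flox/flox;Ror-alphaCre) were homozygous for an allele that Cre recombinase inactivates, and Cre was expressed from the *Rora* gene, which is active in differentiating neurons of sensory thalamic nuclei. Controls came from the same line without Cre and were Sox2flox/flox or Sox2flox/+ in the *Sox2* line and, by the study's methods, flox/flox or flox/+ for *Nr2f1* in the other. The labels of *Nr2f1* controls list the Cre allele together with the words no Cre, and they were treated as animals without Cre, as the study's methods describe. Mutants were set against controls of the same line. Libraries are named here by line and by the number or letter in the deposited tables, CTRL_1, CTRL_2, CTRL_3, MUT_1, MUT_3 and MUT_4 in the *Sox2* line and CTRL_B, CTRL_D, CTRL_E, MUT_A, MUT_B and MUT_C in the *Nr2f1* line.

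Semaphorins are signalling proteins, secreted or bound to the cell surface, that steer growing axons, migrating neurons and blood vessels. Most act through plexins, which change the actin cytoskeleton and adhesion of the receiving cell. The secreted class 3 semaphorins generally need a neuropilin beside the plexin, and neuropilins also bind vascular endothelial growth factors. In the visual system these cues act on retinal axons that enter the dLGN and on thalamic axons that leave it for the cortex.

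The targeted genes, *Sox2* and *Nr2f1*, were examined first, in CPM, read counts divided by the TMM-adjusted library size. *Sox2* had 361 to 382 CPM in the controls of its line and 116 to 152 CPM in its mutants, and *Nr2f1* had 311 to 380 CPM in the controls of its line and 101 to 151 CPM in the mutants. The gene that carries Cre, *Rora*, also fell in *Sox2* mutants, from 335 ± 33.6 to 85.7 ± 12.7 CPM (SD, n = 3 libraries), whereas it had 379.5 ± 34.9 and 319 ± 52.4 CPM in *Nr2f1* controls and mutants. Each targeted gene also had a lower mean in the mutants of the other line: *Sox2* fell in *Nr2f1* mutants, from 343 to 374 CPM in controls to 212 to 279 CPM in mutants (FDR 0.00635, edgeR), and *Nr2f1* had 332 ± 21.3 and 254 ± 51.2 CPM in *Sox2* controls and mutants (FDR 0.0559). Total counts per library lay between 39293465 and 50095344, and all 10 markers of thalamic glutamatergic neurons were detected in every library. Their sum was 2134 to 2665 CPM in *Sox2* controls and 1871 to 1952 CPM in *Sox2* mutants, where 5 fell and 1 rose, and the sums overlapped in the *Nr2f1* line. *Rora* is 1 of these 10 markers, so its own fall, given above, is part of the lower sum. A sum without *Rora* was not examined. Markers of other cell types moved with genotype or with single libraries. Of 10 microglial markers, 9 rose in *Sox2* mutants, and their summed level was 144 to 164.5 CPM in controls and 299 to 353 CPM in mutants. Of 10 astrocyte and radial glial markers, 7 rose in *Sox2* mutants, with sums of 1842 to 2241 and 2826 to 3244 CPM. In *Nr2f1* mutants 1 astrocyte marker and 0 microglial markers rose, but neither sum overlapped. Astrocyte sums were 1635 to 1685 CPM in *Nr2f1* controls and 1805 to 1987 CPM in mutants, and microglial sums 121 to 142.5 and 155 to 188 CPM. Sums of general neuronal markers were 7481 to 7640 CPM in *Nr2f1* controls and 6724 to 7405 CPM in mutants, with 0 of 8 called. In the *Sox2* line those sums overlapped, and 2 fell. Of 10 markers of meningeal and perivascular fibroblasts, 1 rose in *Sox2* mutants and none in *Nr2f1* mutants, but their sums were 2195 and 2648 CPM in MUT_A and MUT_C against 863 to 1284 CPM in *Nr2f1* controls and 1221 CPM in MUT_B. Endothelial markers also separated MUT_A and MUT_C from the controls, with 528 and 562 CPM in MUT_A and MUT_C, 399.9 CPM in MUT_B and 333 to 423.5 CPM in controls, and none of the 10 passed the test in either line. In the *Sox2* line the control library CTRL_3 had sums of 2106 CPM for meningeal and 537 CPM for endothelial markers, against at most 1145 and 376 CPM in CTRL_1 and CTRL_2, and MUT_3 had the highest meningeal sum of all 12 libraries, 3554 CPM, against 1662 and 1983 CPM in MUT_1 and MUT_4. Pallial and hippocampal markers, of which 2 of 10 rose in *Nr2f1* mutants, had sums of 122 to 132 CPM in *Nr2f1* controls and 196 to 229 CPM in mutants. In the *Sox2* line 1 rose and 1 fell. Sums there were 97.1 to 138 CPM in controls and 209, 96.7 and 147 CPM in MUT_1, MUT_3 and MUT_4. *Prox1* and *Lhx2* are in both this list and that of thalamic glutamatergic neurons, so this sum is not specific to pallial tissue. Sums of GABAergic markers were 390 to 441 CPM in *Sox2* controls and 474 to 498 CPM in mutants, and 399 to 435 and 403 to 535 CPM in the *Nr2f1* line. Of these 10 markers 0 were called in either line. Markers of midbrain-derived interneurons had sums of 76.3 to 87.8 CPM in *Sox2* controls and 105.5 to 111 CPM in mutants, with 1 of the 6 tested called higher. Habenular markers had 69.2 to 83.7 and 45.9 to 55.9 CPM, with 2 of the 6 tested called lower and 1 higher. In the *Nr2f1* line interneuron sums were 76.1 to 85.5 CPM in controls and 85.7 to 142.5 CPM in mutants. Habenular sums there were 69.2 to 76.5 and 54.7 to 63.6 CPM, with 0 markers of either list called. In dissected tissue, fewer cells of a type and less RNA per cell cannot be told apart.

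The levels of the genes in control dLGN were compared per transcript length, in RPKM (CPM divided by the transcript length in kilobases), over the 6 control libraries of both lines. The receptor *Plxna1*, with 70.3 ± 10.2 RPKM (SD, n = 6), and the ligand *Sema4g* (67.1 ± 3.73) had the highest means, and their ranges overlapped (52.3 to 78.6 and 61.2 to 72.1 RPKM); in the *Sox2* controls alone *Sema4g* had the higher mean. They were followed by *Sema6a* (53.9 ± 2.55) and *Sema7a* (42.1 ± 3.75). All 4 class 6 semaphorins, transmembrane ligands of A-type plexins, lay between 29.1 and 53.9 RPKM, and together they reached 157 to 164 RPKM in the control libraries. The 6 measured class 4 semaphorins ranged from 7.01 RPKM for *Sema4d*, a ligand of *Plxnb1*, to 67.1 RPKM for *Sema4g*. The 7 secreted class 3 semaphorins were the least abundant ligands, from 0.292 ± 0.0380 RPKM for *Sema3d* to 6.30 ± 0.789 RPKM for *Sema3f*, and their sum was 11.9 to 15.2 RPKM.

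Among receptors, *Plxnb2* had 35.4 ± 1.19, *Plxnb1* 31.5 ± 1.35 and *Plxna3* 28.8 ± 2.04 RPKM. *Nrp1* had 14.5 ± 1.32 RPKM and *Nrp2* 6.16 ± 0.449 RPKM. *Plxnc1*, the plexin that binds SEMA7A, had 5.05 ± 0.467 RPKM, *Plxna2* 2.53 ± 0.310 RPKM and *Plxnb3* 0.302 ± 0.0266 RPKM. Neighbours in this order often could not be separated: the ranges over the 6 libraries overlapped for 10 of 19 neighbouring ligands, such as *Sema7a* and *Sema6b*, and for 4 of 10 neighbouring receptors, such as *Nrp1* and *Plxnd1*. The plot of levels per transcript length shows transmembrane ligands at the top and secreted ligands at the bottom of the order.

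**Figure D1:**
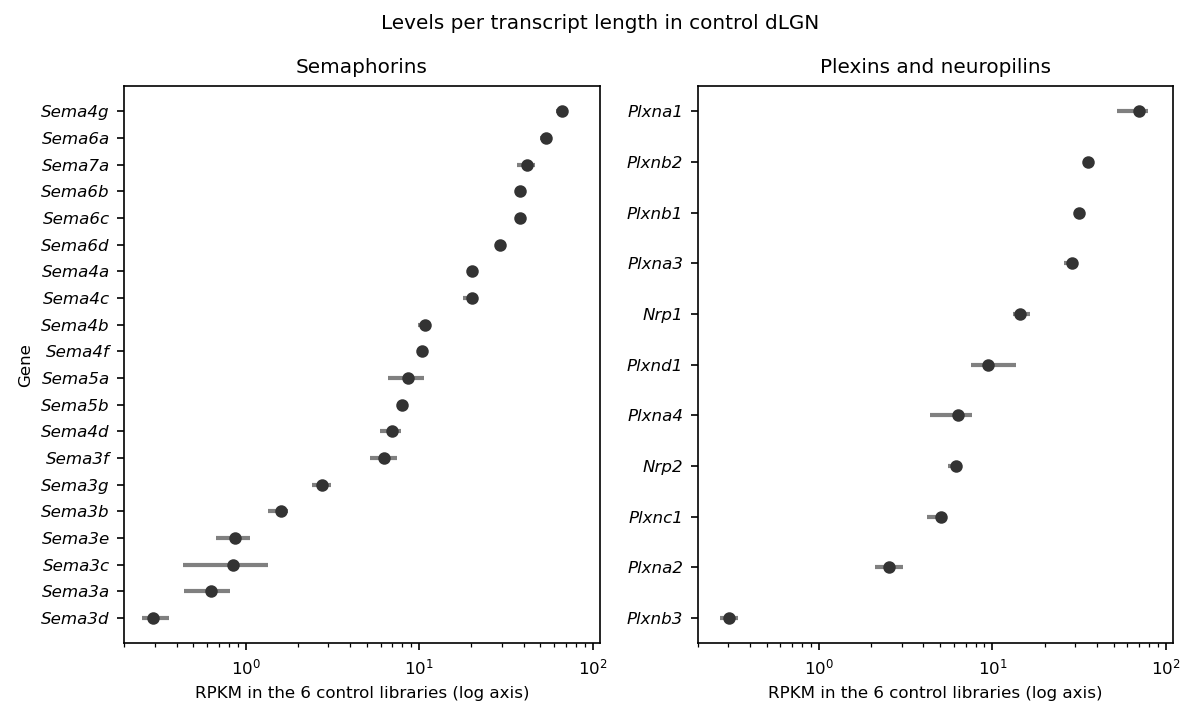
Level of each semaphorin (left) and each plexin and neuropilin (right) in control dLGN, in RPKM on a log axis; points are means of 6 control libraries and lines run from the lowest to the highest library. *Plxna1* and *Sema4g* have the highest means, and *Sema3d* and *Plxnb3* the lowest, at 0.292 and 0.302 RPKM.

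In *Sox2* mutants 7 of the 31 genes changed (edgeR FDR below 0.01 over all 15602 genes tested), or 22.6%, against 8.08% of all genes. *Sema4g*, *Sema5a* and *Sema7a* fell, with 4.19% of all genes called in that direction, and *Sema3f*, *Plxnc1*, *Nrp1* and *Nrp2* rose, with 3.90%. The split depended on the setting: upper quartile normalisation gave 2 lower and 5 higher genes, one fit over the 12 libraries 5 and 4, and, as settings chosen after seeing the data, endothelial markers as a covariate 1 and 8 and meningeal markers 1 and 6. The shares of all genes called lower and higher under these settings are not given here, so the splits cannot be read as particular to the 31 genes. The lower sum of thalamic neuron markers in *Sox2* mutants, given above and including *Rora*, moved with the 3 lower genes, and its part in them was not tested. A further 6 genes had an FDR from 0.01 to 0.05, and 13 in all were below 0.05 (19.8% of all genes). At an unadjusted p below 0.05 there were 21 of the 31 genes, against 35.0% of all genes. The median log2 fold change was 0.02 over the 31 genes and 0.00 over all genes. In *Nr2f1* mutants 3 of the 31 genes changed, or 9.68%, against 2.54% of the 15600 genes tested; *Sema7a* fell (1.32% of all genes were called lower), *Plxna2* and *Nrp1* rose (1.22% were called higher), and 3 more had an FDR from 0.01 to 0.05, so that 6 in all were below 0.05 (7.40% of all genes). At an unadjusted p below 0.05 there were 15, against 24.6% of all genes. *Sema7a* and *Nrp1* were therefore called in both lines, 8 genes in at least 1 line and 23 in neither, and 1.17% of the genes tested in both lines were called in both. The lines share no library.

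The ranges of mutants and controls were separate for 20 of the 31 genes in the *Sox2* line (37.9% of all genes) and for 14 in the *Nr2f1* line (28.6% of all genes). With 3 pools against 3, the exact permutation test of 1 gene cannot give a two-sided p below 0.1, which every gene without overlap reached. The sign of the change was the same in both lines for 26 of the 31 genes, or 83.9%, and for 70.7% of all genes. Of the 11 receptors, 8 had a higher and 3 a lower mean in each line, and the receptors that passed the test, 3 in *Sox2* and 2 in *Nr2f1* mutants, all rose. Of the 20 ligands, 12 had a lower mean in *Sox2* and 11 in *Nr2f1* mutants, the latter near an even split, and 9 or 10 under several alternative fits. Whether ligands and receptors differed in direction was not tested. The plot of fold changes gives each gene in both lines.

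**Figure D2:**
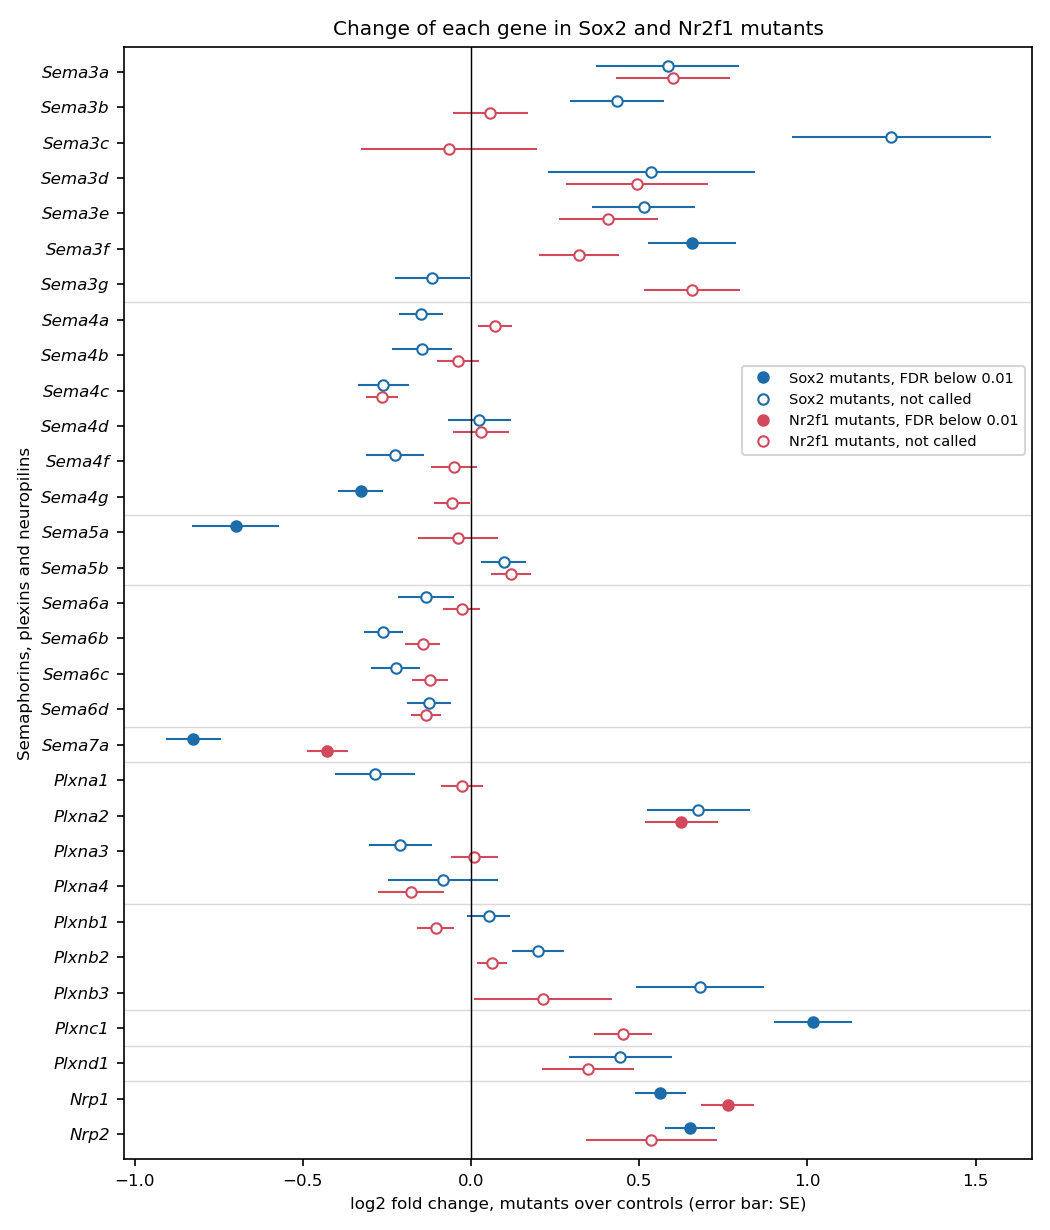
Log2 fold change of mutants over controls for the 31 genes, ordered by class, with SE bars, for *Sox2* mutants (blue) and *Nr2f1* mutants (red); filled points have an FDR below 0.01. Points lie mostly right of 0 for class 3 semaphorins and neuropilins and left of 0 for class 6 semaphorins.

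The sole class 7 semaphorin, *Sema7a*, encodes a protein held at the cell surface by a lipid anchor, which promotes axon growth through integrins and also binds PLXNC1. In the *Sox2* line *Sema7a* had 148, 128 and 121 CPM in the controls and 74.1, 72.5 and 77.3 CPM in the mutants. Controls of the *Nr2f1* line had 142, 139 and 152 CPM and mutants 113, 109.8 and 99.4 CPM. All mutant values were under all control values in both lines. The fold change was -0.83 on the log2 scale (SE 0.08, FDR 2.17e-04, edgeR) in *Sox2* mutants, 56.4% of the control level, and -0.43 (SE 0.06, FDR 0.00356) in *Nr2f1* mutants, 74.4% of the control level. In *Sox2* mutants *Sema7a* was called under all 17 alternative fits, and in *Nr2f1* mutants under 9 of 16. The call was lost there when CTRL_B, CTRL_D, CTRL_E or MUT_A was left out. It was also lost with male-specific, endothelial or meningeal genes as a covariate (-0.47, -0.37 and -0.41). MUT_A had 0 CPM of male-specific genes, so the male-specific covariate mostly set MUT_A apart. It gave nearly the change found without MUT_A (-0.47). The gene lies on chromosome 9 at 10.7 Mb from *Rora*, the closest of the 31 genes to the Cre allele, which mutants carry and controls lack, so that an effect of DNA linked to the Cre allele cannot be told apart from one of the deletion.

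*Plxnc1*, which encodes a plexin that binds SEMA7A, moved in the opposite direction to its ligand. It had 39.8, 37.1 and 30.7 CPM in *Sox2* controls and 78.7, 62.5 and 77.0 CPM in *Sox2* mutants, so that the lowest mutant library stood above the highest control library. This was the largest fold change among the called genes of the group, 1.02 on the log2 scale (SE 0.12, FDR 4.54e-04), and it was called under all 17 alternative fits. *Plxnc1* in the *Nr2f1* line had 38.7, 35.0 and 39.3 CPM in controls and 54.4, 45.2 and 54.8 CPM in mutants, again without overlap, but the change of 0.45 (SE 0.09) had an FDR of 0.0141 and was not called. It was called without MUT_B, at 0.54. With endothelial or meningeal markers as a covariate, a setting chosen after seeing the data, the change was 1.29 and 1.23 in *Sox2* mutants and 0.34 (FDR 0.310) and 0.31 (FDR 0.293) in *Nr2f1* mutants.

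Both neuropilins rose in *Sox2* mutants. *Nrp1*, the receptor component for SEMA3A, had 56.8, 52.8 and 59.1 CPM in *Sox2* controls and 89.5, 80.4 and 79.4 CPM in mutants, a change of 0.56 (SE 0.08, FDR 0.00107). In the *Nr2f1* line the 3 controls had 49.2, 47.5 and 46.5 CPM and the 3 mutants 86.9, 70.8 and 85.4 CPM, a change of 0.76 (SE 0.08, FDR 6.73e-04). The groups did not overlap in either line, and MUT_B was the lowest *Nr2f1* mutant. *Nrp1* was called under all 17 alternative fits in *Sox2* mutants and under 14 of 16 in *Nr2f1* mutants; the call was lost there with endothelial markers (0.61, FDR 0.0192) or meningeal markers (0.62, FDR 0.0175) as a covariate, where 0.468% and 0.494% of all genes were called.

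*Nrp2*, the receptor component for SEMA3F, had 44.9, 41.1 and 43.1 CPM in *Sox2* controls and 67.9, 71.8 and 62.9 CPM in mutants. The change was 0.65 (SE 0.07, FDR 4.62e-04), with no overlap, and was called under 16 of 17 alternative fits; the exception was the fit over all 12 libraries, with an FDR of 0.0122. In the *Nr2f1* line *Nrp2* had 38.2, 43.8 and 36.8 CPM in controls and 58.2, 38.6 and 75.4 CPM in mutants. MUT_B lay within the range of the controls, and the change of 0.54 (SE 0.19, FDR 0.128) was not called. Without MUT_B it was 0.75 (FDR 0.00265). As in the meningeal and endothelial marker sums given above, MUT_A and MUT_C stood above the controls and MUT_B among them, and with these 2 sets of markers as a covariate the change was -0.01 and -0.08, respectively. In *Sox2* mutants the change was 0.60 and 0.66 with the same covariates.

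The sequences before the transcription starts of the 4 genes with the smallest FDR in either line are shown, since the deleted genes encode DNA-binding factors. They are RefSeq sequences of GRCm38.p6, 250 to 41 bases before the start, 5′ to 3′ on the strand of the gene, and GENCODE exons of the gene cover 0 bases of each. For *Sema7a*, *Plxnc1* and *Nrp1* the widest RefSeq gene model begins further upstream. Capitals mark ACAATG or ACAAAG, core letters bound by SOX proteins, and AGGTCA, the half-site of nuclear receptors, on either strand.

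*Sema7a*, chr9:57939862-57940071, plus strand: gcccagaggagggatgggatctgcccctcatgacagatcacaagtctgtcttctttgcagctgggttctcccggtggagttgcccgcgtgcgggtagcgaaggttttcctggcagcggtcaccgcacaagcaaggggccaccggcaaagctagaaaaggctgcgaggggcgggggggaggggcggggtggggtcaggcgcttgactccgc
*Plxnc1*, chr10:94944886-94945095, minus strand: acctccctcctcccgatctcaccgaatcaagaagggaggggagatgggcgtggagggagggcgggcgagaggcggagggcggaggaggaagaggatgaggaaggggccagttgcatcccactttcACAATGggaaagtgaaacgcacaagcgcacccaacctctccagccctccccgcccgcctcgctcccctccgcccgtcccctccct
*Nrp2*, chr1:62703067-62703276, plus strand: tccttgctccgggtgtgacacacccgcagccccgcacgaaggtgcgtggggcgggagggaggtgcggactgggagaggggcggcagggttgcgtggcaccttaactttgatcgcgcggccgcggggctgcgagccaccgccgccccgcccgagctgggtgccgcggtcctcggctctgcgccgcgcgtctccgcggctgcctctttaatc
*Nrp1*, chr8:128358823-128359032, plus strand: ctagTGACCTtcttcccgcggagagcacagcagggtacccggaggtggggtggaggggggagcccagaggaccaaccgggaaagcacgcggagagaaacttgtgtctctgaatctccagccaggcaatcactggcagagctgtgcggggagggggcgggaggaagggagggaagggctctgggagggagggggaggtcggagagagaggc

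In the 250 bases before the start, *Plxnc1* held ACAATG at 125 to 120 bases before it, and *Nrp1* held TGACCT, the reverse complement of AGGTCA, at 246 to 241 bases. No match was found in these windows of *Sema7a* and *Nrp2*. Windows were available for 37 starts of 26 of the 31 genes, of which 5 held ACAATG, 5 ACAAAG and 7 AGGTCA. Of all 32817 windows, 10.7%, 16.5% and 14.0% held these letters.

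Among A-type plexins, *Plxna2*, a receptor of class 6 semaphorins on chromosome 1 (194619791 to 194816869), rose in *Nr2f1* mutants. It had 28.4, 28.1 and 25.9 CPM in *Nr2f1* controls and 45.4, 34.8 and 46.9 CPM in mutants, a change of 0.63 (SE 0.11, FDR 0.00853), with MUT_B again nearest to the controls. In the *Sox2* line it had 34.1, 27.6 and 23.1 CPM in controls and 53.0, 38.1 and 44.2 CPM in mutants, a change of 0.68 (SE 0.15) that did not pass at an FDR of 0.0139. Neither line showed overlap. The call in *Nr2f1* mutants was held under 7 of 16 alternative fits and lost when any library but MUT_B was left out, in one fit over the 12 libraries and with each of the 3 covariates, where the change was 0.37 and 0.41 with endothelial and meningeal markers as a covariate. In *Sox2* mutants the same covariates gave 1.08 and 0.93, and 9 of 17 alternative fits called it. The other A-type plexins, *Plxna1*, *Plxna3* and *Plxna4*, had changes of -0.29 to -0.08 in *Sox2* and -0.18 to 0.01 in *Nr2f1* mutants, and none passed. With endothelial markers as a covariate *Plxna4* was called higher in *Sox2* mutants (0.41, FDR 0.00838, against -0.08 without the covariate).

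B-type plexins, which include receptors of class 4 semaphorins, had 3 higher means in *Sox2* mutants, from 0.05 for *Plxnb1* to 0.68 for *Plxnb3*. Of these, *Plxnb3* had an FDR of 0.0338. *Plxnb3* is a scarce transcript in this tissue, with 1.70 to 2.08 CPM in *Sox2* controls and 2.61 to 3.21 CPM in mutants. In *Nr2f1* mutants the changes of B-type plexins lay between -0.11 and 0.21. *Plxnd1*, a receptor of SEMA3E known from blood vessels and neurons, had 63.7, 60.3 and 94.5 CPM in *Sox2* controls and 88.7, 104 and 104 CPM in mutants. Its highest control was CTRL_3, the control library with the highest endothelial and meningeal sums, and the change of 0.44 had an FDR of 0.0697. *Plxnd1* in the *Nr2f1* line had 51.6, 66.9 and 51.4 CPM in controls and 74.3, 58.4 and 83.7 CPM in mutants (0.35, FDR 0.157), with MUT_B again inside the control range. With endothelial and meningeal markers as a covariate the change of *Plxnd1* was 0.07 and 0.20 in *Sox2* mutants and -0.07 and 0.01 in *Nr2f1* mutants.

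The class 3 semaphorins, secreted ligands of neuropilin and plexin complexes, had higher means in mutants for 6 of 7 genes in each line, with median changes of 0.54 in *Sox2* and 0.41 in *Nr2f1* mutants. With endothelial and meningeal markers as a covariate the medians were 0.81 and 0.68 in *Sox2* mutants and 0.10 and 0.16 in *Nr2f1* mutants, where 5 of 7 genes were then higher. One passed the test. *Sema3f* encodes a ligand of NRP2 and spans 107681499 to 107710475 of chromosome 9, at 38.3 Mb from *Rora*. An effect of DNA linked to the Cre allele can likewise not be told apart from one of the deletion for *Sema3f*. It had 20.9, 22.0 and 17.7 CPM in *Sox2* controls and 34.8, 25.9 and 34.8 CPM in mutants, a change of 0.66 (SE 0.13, FDR 0.00818) without overlap. It was called under 11 of 17 alternative fits and lost when CTRL_1, CTRL_2, CTRL_3, MUT_1 or MUT_4 was left out or male-specific genes were a covariate. In the *Nr2f1* line *Sema3f* had 19.5, 25.1 and 22.8 CPM in controls and 25.5, 26.0 and 32.7 CPM in mutants (0.32, FDR 0.135). *Sema3c* had the largest change of all 31 genes, 1.25 (SE 0.30), but its mutant libraries spread from 5.58 to 12.2 CPM and its FDR was 0.0172. It was called under 7 of 17 alternative fits, among them DESeq2, the fit without MUT_3 and the fit with the library number as a block. The block fit rests on the libraries numbered 1 and 3 alone. In *Nr2f1* mutants its change was -0.07. *Sema3e* had a change of 0.51 (FDR 0.0425) in *Sox2* mutants and 0.41 in *Nr2f1* mutants.

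*Sema3g*, a class 3 semaphorin known from the vascular endothelium, was the 1 gene of its class with a lower mean in *Sox2* mutants. It had 12.3, 12.4 and 14.0 CPM in *Sox2* controls and 12.1, 10.8 and 12.8 CPM in *Sox2* mutants (-0.11, FDR 0.497). In the *Nr2f1* line it had 13.1, 12.8 and 10.8 CPM in controls and 22.7, 15.3 and 19.8 CPM in mutants, without overlap, with MUT_B the lowest mutant, and the change of 0.66 (SE 0.14) had an FDR of 0.0243. With endothelial or meningeal markers as a covariate it was 0.39 and 0.46. The summed level of the 7 class 3 transcripts was 12.7 ± 0.651 RPKM in *Sox2* controls and 18.0 ± 1.87 RPKM in mutants, and 13.95 ± 1.07 and 17.9 ± 2.02 RPKM in the *Nr2f1* line.

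Class 4 semaphorins are transmembrane ligands, several of which bind B-type plexins, and 5 of 6 had a lower mean in *Sox2* and 4 of 6 in *Nr2f1* mutants, or 2 of 6 there with endothelial or meningeal markers as a covariate. *Sema4g*, on chromosome 19 from 44988743 to 45003397, was the most abundant ligand and had 309, 297 and 278 CPM in *Sox2* controls and 237, 237 and 230.4 CPM in mutants. The drop to 79.7% of the control level was small but exceeded the spread, at -0.33 (SE 0.07, FDR 0.00856). It was called under 7 of 17 alternative fits, and was lost with upper quartile normalisation, with each of the 3 covariates and without CTRL_1, CTRL_2, MUT_1, MUT_3 or MUT_4. The call was also lost with the library number as a block, a fit that rests on the libraries numbered 1 and 3. *Sema4g* in the *Nr2f1* line had 307, 324 and 310.4 CPM in controls and 309, 313 and 283 CPM in mutants (-0.06, FDR 0.568). *Sema4c*, a ligand of PLXNB2, had a change of -0.26 in both lines, with an FDR of 0.0370 in *Sox2* and 0.0117 in *Nr2f1* mutants, and its groups overlapped in neither. *Sema4a*, *Sema4b*, *Sema4d* and *Sema4f* had changes of -0.23 to 0.02 in *Sox2* and of -0.05 to 0.07 in *Nr2f1* mutants.

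*Sema5a*, a transmembrane ligand with thrombospondin repeats, lies on chromosome 15 from 32244813 to 32696341 of GRCm38.p6. It had 100.4, 86.8 and 71.1 CPM in *Sox2* controls and 53.3, 59.8 and 46.1 CPM in mutants. The change was -0.70 (SE 0.13, FDR 0.00592), 61.6% of the control level and without overlap, and was called under 10 of 17 alternative fits. It was not called without CTRL_1, CTRL_2, MUT_1 or MUT_4 or with any of the 3 covariates. With endothelial markers as a covariate the change was -0.45 (FDR 0.0861). CTRL_3, with the highest endothelial sum of the controls, had the lowest control value. *Sema5a* in the *Nr2f1* line had 97.9, 89.3 and 114 CPM in controls and 114.8, 83.3 and 95.6 CPM in mutants (-0.04, FDR 0.874), and the groups overlapped. The related *Sema5b* had changes of 0.10 and 0.12 and passed in neither line.

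The 4 class 6 semaphorins, *Sema6a*, *Sema6b*, *Sema6c* and *Sema6d*, had lower means in mutants of both lines, and none passed. *Sema6a* in *Nr2f1* mutants, at -0.03, was just above 0 with meningeal markers as a covariate and without CTRL_B or MUT_C. Their changes lay between -0.26 and -0.13 in *Sox2* and between -0.14 and -0.03 in *Nr2f1* mutants. *Sema6b* came nearest, with 146, 154 and 147 CPM in *Sox2* controls and 125, 123 and 126 CPM in mutants (-0.26, FDR 0.0130). The summed level of the class was 160.2 ± 3.62 and 140.1 ± 3.89 RPKM in *Sox2* controls and mutants and 159 ± 1.45 and 148 ± 2.80 RPKM in *Nr2f1* controls and mutants, without overlap of the libraries in either line and with no test made on the sum.

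Of the 15 more abundant genes (10.4 to 70.3 RPKM in controls), 12 had a lower mean in *Sox2* and 11 in *Nr2f1* mutants, and of the 16 less abundant (0.292 to 9.39 RPKM), 13 had a higher mean in each line. This division was made after the values were seen and is given as a description.

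**Figure D3:**
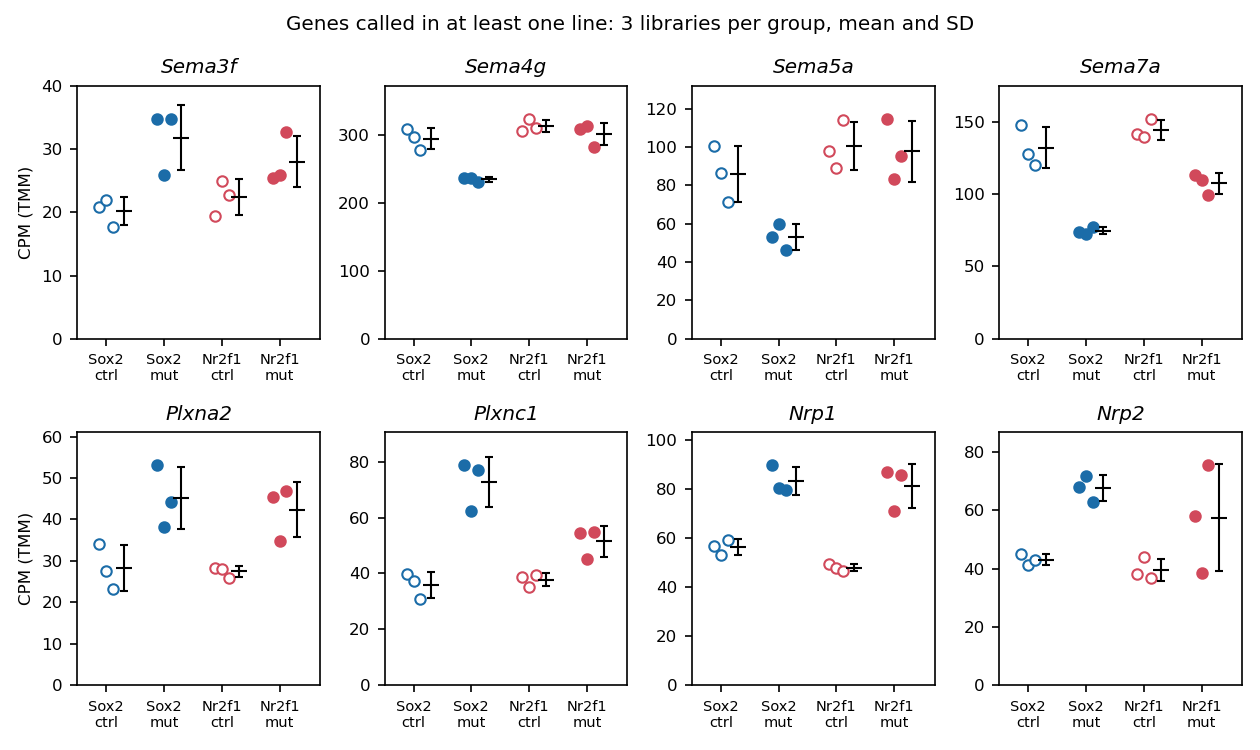
CPM in each of the 12 libraries for the 8 genes called in at least 1 line (3 libraries per group, open circles controls, filled circles mutants; the bars give mean and SD, and each axis starts at 0). *Sema7a* is lower and *Nrp1* higher in all mutant libraries of both lines, while *Nrp2* in *Nr2f1* mutants spreads from 38.6 to 75.4 CPM.

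Whether the mutants differed from each other was tested in one fit over the 12 libraries, with a positive value where the change was higher in the *Sox2* line. None of the 31 genes passed (edgeR, 1.44% of 15989 genes were called, 1.11% lower and 0.331% higher), and 8 had an unadjusted p below 0.05 (16.2% of all genes). DESeq2 called 2, *Sema3g* and *Plxnc1*, and the share of all genes that it called is not given here. The smallest FDR was that of *Sema3g*, with a difference of -0.77 (SE 0.19, FDR 0.0434), and 3.36% of all genes had an FDR below 0.05. *Sema7a* followed with -0.39 (SE 0.10, FDR 0.0553), *Plxnc1* with 0.57 (SE 0.15, FDR 0.0608), *Sema4g* with -0.26 (SE 0.08, FDR 0.0849) and *Sema5a* with -0.65 (SE 0.20, FDR 0.0998). *Sema4g* and *Sema5a*, called in *Sox2* mutants alone, were therefore not shown to differ between the lines at this threshold. For the neuropilins the differences were -0.19 for *Nrp1* (FDR 0.451) and 0.12 for *Nrp2* (FDR 0.877).

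Co-receptors and signalling partners were examined with a list of 58 genes, of which 57 were in the tables and tested. In *Sox2* mutants 6 of the 57 changed (10.5%, against 8.08% of all genes) and in *Nr2f1* mutants 3 (5.26%, against 2.54%), with medians of -0.06 and -0.03. Among co-receptors, *L1cam*, an adhesion molecule that binds NRP1, had 908, 920 and 719 CPM in *Sox2* controls and 569, 581 and 560 CPM in mutants (-0.57, FDR 0.00352), and in the *Nr2f1* line its change was -0.17 (FDR 0.190). *Nrcam*, a related adhesion molecule that binds NRP2, had 316, 311 and 321 CPM in *Nr2f1* controls and 241, 258 and 229.9 CPM in mutants (-0.38, FDR 0.00298). In *Sox2* mutants its change was -0.42 (FDR 0.0124).

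*Trem2* and its adaptor *Tyrobp*, partners of PLXNA1 in cells of the macrophage lineage, rose in *Sox2* mutants by 1.58 (FDR 2.11e-04) and 1.32 (FDR 8.23e-04). *Trem2* is also 1 of the 10 microglial markers, which rose together in these libraries. *Trem2* was the 1 gene of the list called for the difference between the mutants (1.32, SE 0.21, FDR 0.00264).

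Inside the cell, *Mical2*, a MICAL enzyme that oxidises actin, fell in *Nr2f1* mutants from 36.2, 40.4 and 32.8 CPM to 19.4, 23.6 and 18.5 CPM (-0.83, FDR 0.00218), and all 5 MICAL family members had a lower mean in *Sox2* mutants, with none called. *Rnd1*, a small GTPase that binds the cytoplasmic part of plexins, had 7.92, 6.86 and 7.35 CPM in *Nr2f1* controls and 13.7, 12.8 and 13.1 CPM in mutants (0.84, FDR 0.00123), and MUT_B did not stand apart for this gene. *Dpysl4*, of the CRMP family of cytoskeletal mediators (-0.37, FDR 0.00429), and the kinase *Fes* (-0.80, FDR 0.00162) fell in *Sox2* mutants, and *Tiam1*, an exchange factor for RAC1, rose (0.40, FDR 0.00914).

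The 8 genes called in at least 1 line differed in how far their calls depended on the settings. Their direction in the line of the call was the same under every alternative fit, as the plot of alternative fits shows. Under the covariates for meningeal and endothelial markers, *Sema3f*, *Sema7a*, *Plxna2*, *Plxnc1*, *Nrp1* and *Nrp2* were called in *Sox2* mutants and *Sema4g* and *Sema5a* were not, and none of the 31 genes was called in *Nr2f1* mutants.

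**Figure D4:**
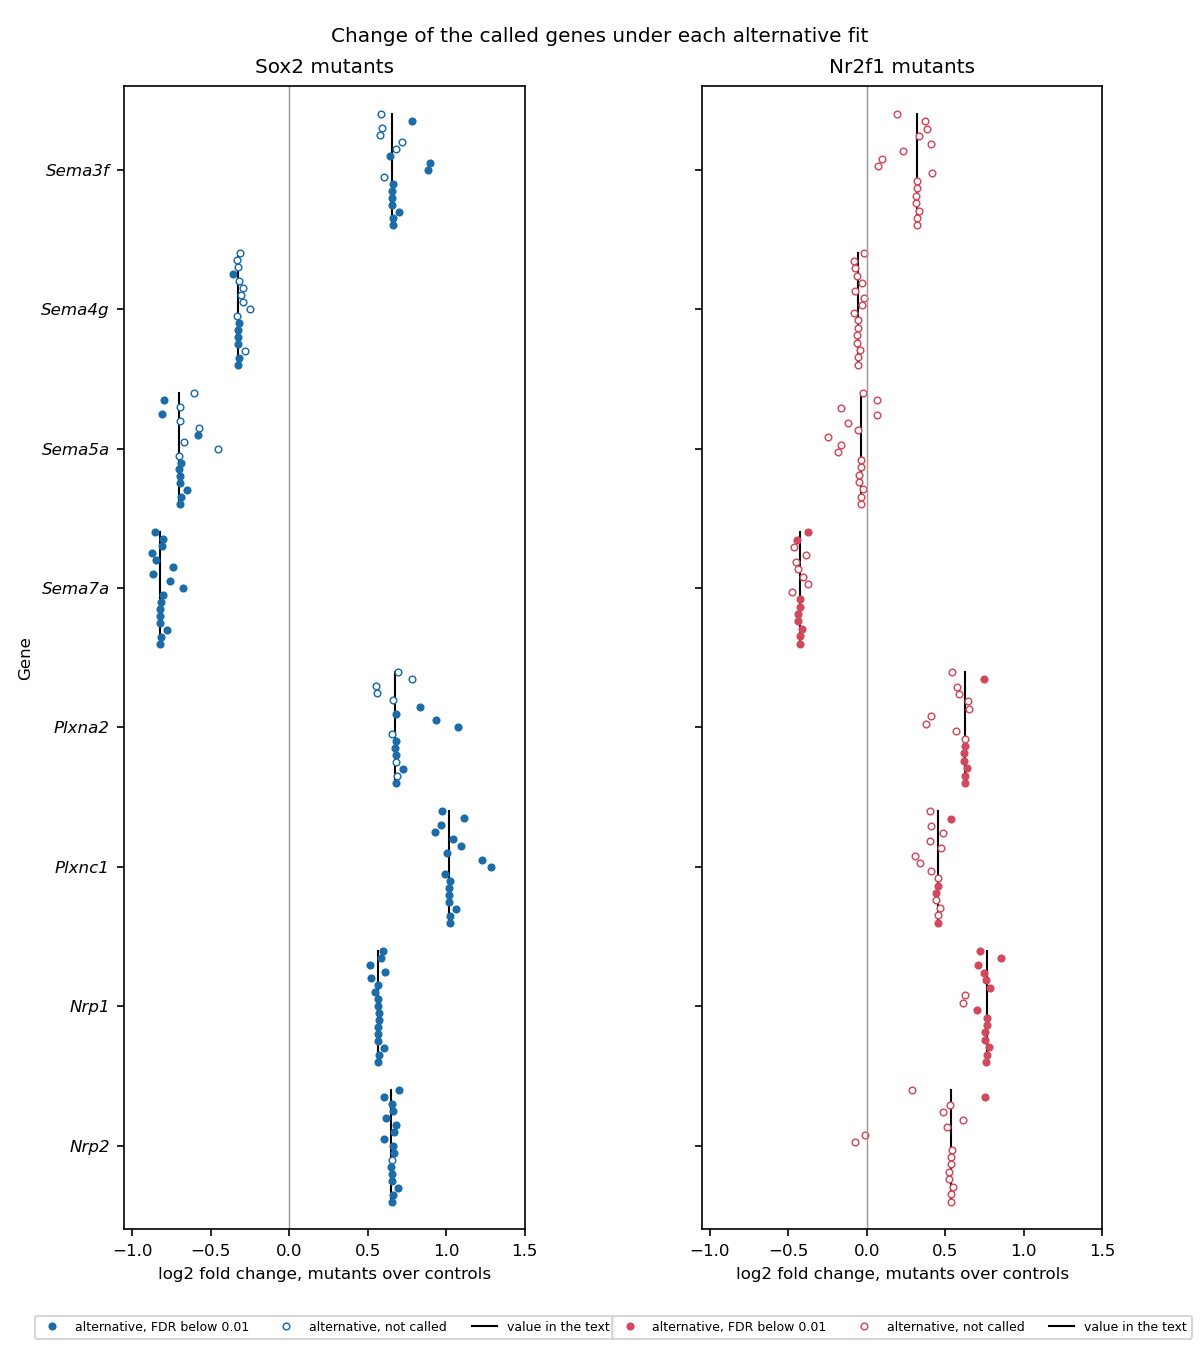
Log2 fold change of the 8 called genes under each alternative fit in *Sox2* mutants (left) and *Nr2f1* mutants (right); vertical bars mark the values given in the text, filled points alternatives with an FDR below 0.01 and open points those without. *Nrp2* in *Nr2f1* mutants has the widest spread, from -0.08 to 0.75.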

How the data were processed

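RNA-seq was measured in 12 libraries of P0 dLGN, in 4 groups of 3 pools. According to the methods and labels, RNA was extracted with RNeasy Micro, libraries were made with the Nugen Universal + mRNAseq kit, reads were aligned with STAR to the RefSeq mouse transcriptome and quantified with RSEM, and mm10 is the build named in the submitters' processing notes. Whether counting used the strand is not given in the sources used here. The authors deposited expected counts per gene (24480 genes in each of 2 tables, not normalized), 7.77% of which were not whole, and they were rounded. Tables hold 0 columns without a group, and columns name groups but not single samples.

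Counts were tested in R 4.3.3 with edgeR 4.0.16: filterByExpr (minimum count 10, minimum total count 15), TMM, glmQLFit and glmQLFTest with default parameters, FDR over all genes, called below 0.01. The study's methods name this test and threshold. The difference between mutants was the interaction of line and genotype. No replicate pools agreed within sampling noise (chi-square per degree of freedom 10.8 to 39.6). RPKM used the longest GENCODE M21 transcript with a RefSeq link, known for 95.5% of genes. Of 12 libraries, depth was 39293465 to 50095344 counts, and the median SE of a log2 fold change was 0.0937 and 0.0798 for the 31 genes in the *Sox2* and *Nr2f1* lines. P-values measure the spread between pools.

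The genes, the list of partners and the marker lists were chosen with earlier results of these data known. A gene was described in full if called in either line or for the difference, by fold change and FDR if the FDR lay between 0.01 and 0.05, and otherwise by range; called partners were named. *Sema3g*, *Plxnd1* and *Sema6b* were given per library after their values were seen. Alternatives were no filter, a minimum of 10 counts per library, RLE and upper quartile scaling, DESeq2 1.42.0, the likelihood ratio test, an FDR of 0.05, one fit over 12 libraries, male-specific genes as a covariate, a replicate block, and leaving out each library. Endothelial and meningeal covariates were added after seeing the data. The tests were checked on simulated counts.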

Additional observations from a re-analysis of the deposited data

How the results depend on the processing

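The number of the 31 genes called in *Sox2* mutants was 7, and 4 with male-specific genes as a covariate, 13 at FDR below 0.05 and 4 to 8 when 1 library was left out (4 without CTRL_2, MUT_1 or MUT_4). In *Nr2f1* mutants it was 3, and 6 at FDR below 0.05, with DESeq2 or with the likelihood ratio test, 1 with male-specific genes and 0 with endothelial or meningeal markers as a covariate, and 1 to 6 when 1 library was left out (1 without CTRL_B, CTRL_D, CTRL_E or MUT_A, 6 without MUT_B). For the difference between mutants it was 0, and 1 at FDR below 0.05 or with the likelihood ratio test, 2 with DESeq2, and 0 to 1 when 1 library was left out (1 without MUT_B). Of the 57 partners, 6 were called in *Sox2* mutants, and 16 at FDR below 0.05, 12 with the likelihood ratio test, 15 with DESeq2, 13 in one fit over 12 libraries and 2 to 11 when 1 library was left out (2 without CTRL_1 or MUT_4, 3 without CTRL_2 or MUT_1, 11 without CTRL_3). In *Nr2f1* mutants 3 partners were called, and 13 at FDR below 0.05, 5 without a filter, 10 with the likelihood ratio test, 12 with DESeq2, 0 with each of the 3 covariates, and 1 to 9 when 1 library was left out (1 without CTRL_B, CTRL_D or MUT_A, 9 without MUT_B). All genes moved too: with endothelial or meningeal markers as a covariate 0.468% and 0.494% of them were called in *Nr2f1* mutants. At an FDR below 0.05 the shares of all genes were 19.8% in *Sox2* mutants, 7.40% in *Nr2f1* mutants and 3.36% for the difference. For most other settings the share of all genes is not given here. Counts without that share describe the settings and cannot be read as particular to these genes. Whether the 31 genes were called more often than all genes was not tested. The cause of the shifts between settings was not tested either.

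Over all 31 genes, 4 changed sign under at least 1 alternative in *Sox2* mutants and 12 in *Nr2f1* mutants, none of them among the genes called in that line. Among the 14 genes with an FDR below 0.05 in either line, sign changes in *Nr2f1* mutants were those of *Sema3c* (0.0067 with male-specific genes as a covariate, 0.16 without CTRL_D, 0.14 without MUT_B, and from -0.38 to 0.16 over all libraries left out), *Sema5a* (0.064 without CTRL_E, 0.065 without MUT_B, range -0.17 to 0.065) and *Nrp2* (-0.076 and -0.011 with endothelial and meningeal markers as a covariate). For the difference between mutants they were those of *Plxna2* (-0.053 without MUT_B, -0.063 without CTRL_3, -0.073 without MUT_1 of the *Sox2* line, range -0.073 to 0.21) and *Nrp2* (-0.083 without MUT_B, range -0.083 to 0.38). Of the other alternatives, 536 kept direction and side of the threshold, 42 lost a call or count and 35 gained one. The same 10 genes were the most abundant with median in place of longest transcript length.

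In the *Sox2* line the numbers 1 and 3 occur in both groups, and the deviations of those libraries from their group means correlated at 0.178 and 0.137 across genes, which with 2 numbers does not establish pairs. With the replicate number as a block, 8 of the 31 genes were called (10.3% of all genes) and 7 partners. *Sema4g* lost its call, and *Sema3c* and *Plxna2* gained one. CTRL_2 and MUT_4 each stood alone in a block of this fit. The change therefore rested on the libraries numbered 1 and 3, with little left to measure the spread, so calls gained or lost under this fit are weakly founded. The groups of the *Nr2f1* line share only the letter B, for which the correlation was 0.172, and no block was fitted there.

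Precision is limited by the 3 pools of a group. Pools differed in sex, with 0 CPM of male-specific genes in MUT_A of the *Nr2f1* line and 32.9 to 112.8 CPM in the other libraries. In the *Nr2f1* line the male-specific covariate is therefore not a check separate from leaving out MUT_A. The female-specific transcript *Xist* had 0.286 CPM in CTRL_E of the *Nr2f1* line. In the *Sox2* line it had 0.188 CPM in CTRL_2 and 0.455 CPM in MUT_1. All remaining libraries had 288.5 to 1156 CPM of *Xist*.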
